A study of Homo sapiens with 4 samples.

Results

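The genes described here are 10 grouped as Wnt inhibitors and antagonists. They are the secreted proteins DKK1, DKK3, DKK4, SFRP1, SFRP2, SFRP5 and WIF1, the DKK receptors KREMEN1 and KREMEN2, and the transcription factor SOX17. They were found by name: every probe set of the array whose single annotated symbol is one of these was taken. That gave 24 of 54675 probe sets, for 10 of the 19775 genes with a probe set of their own, and each gene had at least 1. The RNA came from the colorectal cancer line HCT116, an established human cell line, after transfection with an siRNA against TET1 (2 arrays) or with a control siRNA (2 arrays). Lipid reagent and culture medium were the same for both groups, and the submitters describe the samples as biological duplicates. The labels name 1 TET1 siRNA group, so an effect of TET1 loss and an effect of the siRNA itself cannot be told apart. The values are signals on a linear scale of arbitrary units.

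Wnt proteins bind a Frizzled receptor together with LRP5 or LRP6, which spares beta-catenin from destruction and lets it act with TCF factors in the nucleus. SFRP proteins and WIF1 bind Wnt proteins outside the cell, DKK1 and DKK4 block LRP5 and LRP6 with help from KREMEN1 or KREMEN2, and SOX17 antagonises beta-catenin with TCF in the nucleus. Many of these genes are known for promoter methylation and silencing in colorectal cancer, and TET1 is an enzyme that oxidises methylated cytosine in DNA. HCT116 cells carry an activating beta-catenin mutation, which acts downstream of the secreted inhibitors.

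Precision is limited by the small number of arrays. Median signals were 13.9 and 14.4 on the TET1 siRNA arrays and 14.3 and 15.5 on the control siRNA arrays. The brighter TET1 probe set read 14.6 and 15 with TET1 siRNA, against 58.1 and 59.6 with control siRNA (limma adjusted p = 0.00127). The dimmer one read 6 and 8.9 with TET1 siRNA, against 18.2 and 35.5 with control siRNA, and did not pass (limma adjusted p = 0.0509). Of 12 colon epithelial markers, EPCAM, KRT8, KRT18, KRT19 and CLDN4 were bright, with 265.1 as the lowest signal among the 5, whereas the intestinal genes CDX1, CDX2, CDH17 and GPA33 lay below the filter on dim probe sets. Among the 8 markers above it 1 rose, KRT8 (limma adjusted p = 0.0134), and 1 fell, CDH1, which encodes the cell adhesion protein E-cadherin. CDH1 read 474.8 and 394 with TET1 siRNA, against 925.1 and 1059 with control siRNA (log2 difference -1.16, limma adjusted p = 6.56e-05), and both of its probe sets fell; any part of this in the results was not tested. The filter kept a probe set where its mean log2(signal + 16) over the 4 arrays exceeded that of the middle non-control probe set, which corresponds to a signal of 13.1. In a culture, fewer cells of a type and less RNA per cell cannot be told apart.

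Most of the Wnt inhibitors read at or near background on all 4 arrays. Of the 24 probe sets, 5 passed the filter, and they belong to 3 genes: DKK1 (1 of 1 probe set), KREMEN1 (3 of 5) and KREMEN2 (1 of 1). The other 7 genes had no probe set above it. Single arrays of SFRP1 and SOX17 still exceeded the array median. SFRP1 202037_s_at did so at 18.7 with TET1 siRNA and 16.9 with control siRNA. SFRP1 228413_s_at did so at 17 and SOX17 219993_at at 16.8, each on 1 TET1 siRNA array. Background was also judged from 74 probe sets of 36 genes chosen as markers of other tissues, such as liver, muscle and blood. Their 95th percentile was 41.03 and 35.03 on the TET1 siRNA arrays and 37.025 and 30.89 on the control siRNA arrays, a level set by the few brightest of the 74. One of these genes, MBP, was not dim: its brightest probe set read 226.8 and 198.6 with TET1 siRNA, against 178.3 and 166.5 with control siRNA. By that level 3 probe sets were above background on both arrays of at least 1 group, 1 each for DKK1, KREMEN1 and KREMEN2, and KREMEN2 was so with TET1 siRNA only. With the 90th percentile, which lay between 18.15 and 19.96, or with the median of all probe sets, they were 5, of the same 3 genes. They were also 5 with the 95th percentile of the 65 probe sets left without MBP, an alternative chosen after seeing the data, which lay at 15.44 and 18.8 on the TET1 siRNA arrays and at 16.98 and 20.24 on the control siRNA arrays.

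**Figure D1:**
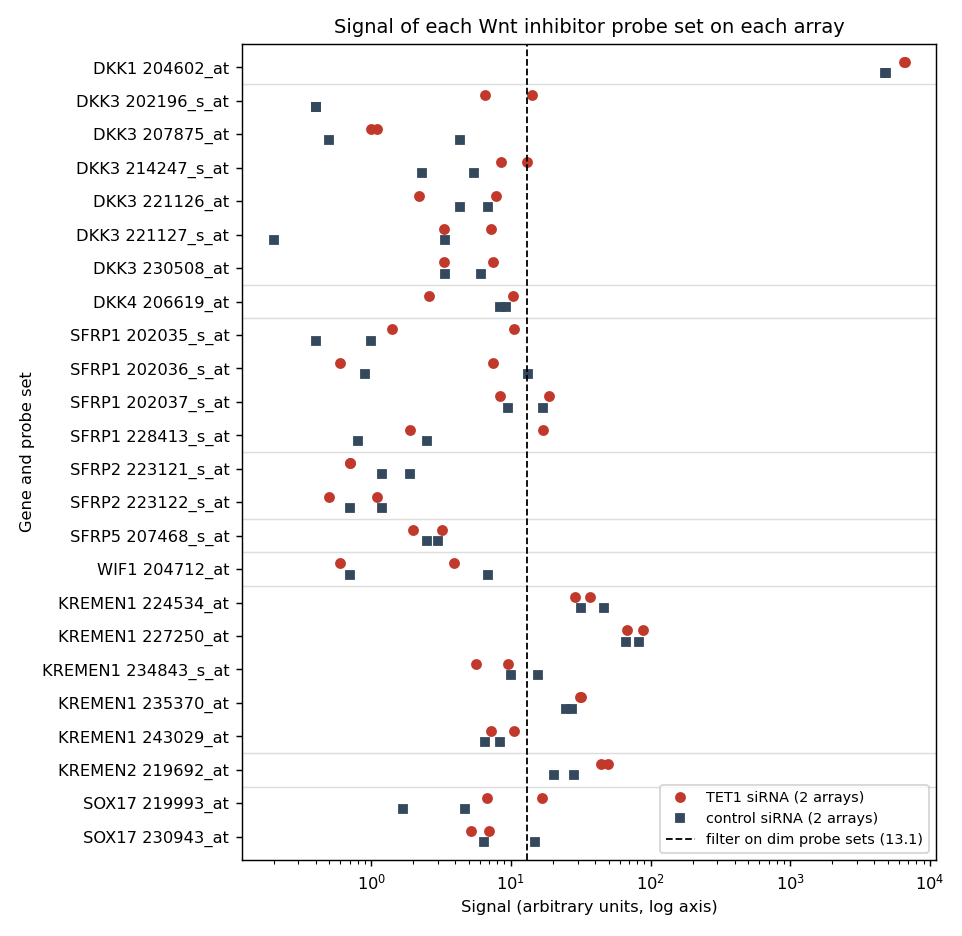
Signal of each of the 24 Wnt inhibitor probe sets (rows, grouped by gene) on each array, on a log axis in arbitrary units, with circles for the 2 TET1 siRNA arrays, squares for the 2 control siRNA arrays and a dashed line at the filter (13.1). DKK1 stands alone at 4793.7 or more, KREMEN1 and KREMEN2 lie between 5.6 and 88.8, and no signal of the other 7 genes exceeds 18.7.

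DKK1, the secreted blocker of LRP5 and LRP6, had one of the brightest signals of these arrays. Its signal was 6596.3 and 6486.6 with TET1 siRNA, against 4822.1 and 4793.7 with control siRNA. Both TET1 siRNA arrays lay above both control siRNA arrays, and the signal fell between percentiles 99.4 and 99.6 of its array on all 4. The means were 6541.5 ± 77.6 with TET1 siRNA and 4807.9 ± 20.1 with control siRNA (SD, n = 2 each), a ratio of 1.36. On the log2(signal + 16) scale the difference was 0.44 (SE 0.056, 95% interval 0.32 to 0.57), and it passed the test across all probe sets above the filter (limma adjusted p = 4.95e-04). The DKK1 signal was far above background under either siRNA, and it rose with TET1 siRNA.

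The call for DKK1 rests on limma's model of variance: with eBayes without a trend of variance on signal its adjusted p was 0.0857, and with no sharing of variance between probe sets 0.138. Its log2 difference itself ran only from 0.43 to 0.48 over 16 alternatives. The 3 genes whose values, centred on their mean over the 4 arrays, lay nearest to those of DKK1 among 12389 genes were EIF2AK3, DRAP1 and LRRIQ3, at Euclidean distances of 0.00539, 0.016 and 0.0196 on the log2 scale. EIF2AK3, a kinase of the endoplasmic reticulum stress response, read 289.5 and 282.9 with TET1 siRNA, against 206.7 and 205.6 with control siRNA. LRRIQ3 was dimmer, at 56.3 and 55.4 with TET1 siRNA against 37.8 and 37.3 with control siRNA, and did not pass (limma adjusted p = 0.127). Likeness over 4 arrays in 2 groups says little more than a difference of the same size.

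KREMEN2 encodes a transmembrane receptor that binds DKK1 and takes LRP6 from the cell surface. Its single probe set read 43.9 and 49.6 with TET1 siRNA, against 20.5 and 28.5 with control siRNA. The groups did not overlap, with a ratio of the means of 1.91. The control siRNA signals lay below the 95th percentile of the other-tissue probe sets with MBP and above it without MBP. The means were 46.75 ± 4.03 with TET1 siRNA and 24.5 ± 5.66 with control siRNA (SD, n = 2 each). The log2 difference was 0.64 (SE 0.20, 95% interval 0.20 to 1.08), and the probe set narrowly missed the threshold of 0.05 (limma adjusted p = 0.0529). It passed in 5 of 15 alternatives (adjusted p from 0.0265 to 0.277 over all 15), among them 1 probe set a gene (adjusted p = 0.0471) and quantile normalization (0.0392). The log2 difference itself ran from 0.32 with a pseudocount of 64 to 0.92 with a pseudocount of 1.

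KREMEN1, the paralogue of KREMEN2, gave no call with any of its probe sets. Its brightest read 88.8 and 68 with TET1 siRNA, against 82.7 and 67.1 with control siRNA, so that the groups overlapped. The log2 difference was 0.05 (SE 0.17, 95% interval -0.33 to 0.43, limma adjusted p = 0.885), and its sign turned when TET1 siRNA replicate 1 (-0.11) or control siRNA replicate 2 (-0.073) was left out. A second probe set (224534_at) read 36.9 and 28.9 with TET1 siRNA, against 32 and 46.6 with control siRNA, with a log2 difference of -0.17 (95% interval -0.63 to 0.29). The third (235370_at) read 31.8 and 31.3 with TET1 siRNA, against 27.4 and 25 with control siRNA, with a log2 difference of 0.17 (95% interval -0.26 to 0.61). These intervals leave room for changes in either direction, and the 3 differences had no common sign. Its other 2 probe sets stayed at or below 15.7 on every array. One of them (234843_s_at) was lower without overlap, at 9.6 and 5.6 with TET1 siRNA against 10.1 and 15.7 with control siRNA.

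**Figure D2:**
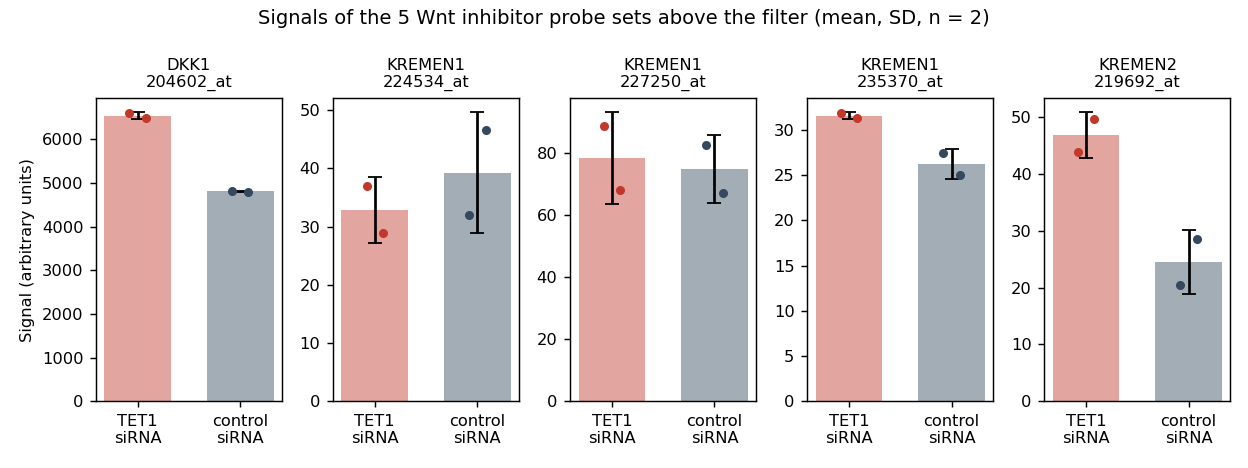
Signals (arbitrary units, each panel with its own axis from 0) of the 5 Wnt inhibitor probe sets above the filter, with bars for the mean of 2 arrays, error bars for the SD and points for single arrays, TET1 siRNA beside control siRNA. DKK1 and KREMEN2 show groups that do not overlap, as does the KREMEN1 probe set 235370_at, while the other 2 KREMEN1 probe sets overlap.

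Among the tested probe sets of these genes, 1 of 5 rose (DKK1), none fell and 4 did not pass. At an unadjusted p below 0.05 limma gave 2 higher and 0 lower, against 3887 higher and 4150 lower of all 27306 probe sets tested. Of all 27306 probe sets tested 16.1% passed in either direction, 7.76% higher and 8.31% lower, so that 1 of 5 is near the share of the whole array. In 3 of the 5 the groups did not overlap, and all 3 were higher with TET1 siRNA. Of all tested probe sets 56.1% did not overlap in either direction, and 27.3% were higher without overlap. The median log2 difference of the 5 was 0.17, and that of all tested probe sets -0.0098. The lowest p that exact permutation of 2 and 2 arrays allows is 0.333, and every adjusted p therefore depends on limma's model.

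**Figure D3:**
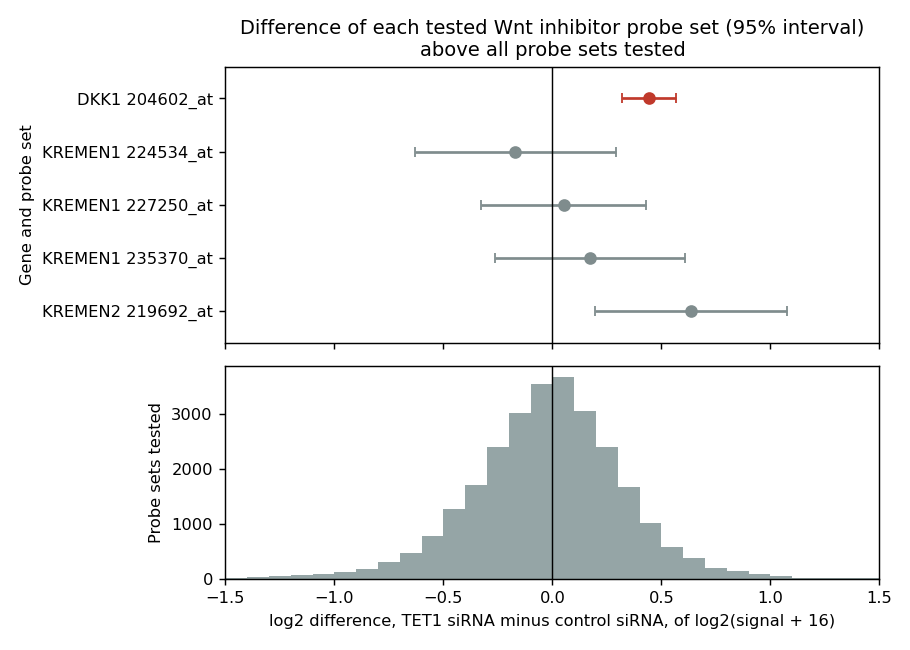
Upper panel, log2 difference of each tested Wnt inhibitor probe set (TET1 siRNA minus control siRNA, of log2(signal + 16)) with its 95% interval from limma, red where the adjusted p was below 0.05; lower panel, number of all 27306 tested probe sets per 0.1 of log2 difference, drawn from -1.5 to 1.5. The intervals of DKK1 and KREMEN2 lie above 0, without adjustment for the number of probe sets, and those of the 3 KREMEN1 probe sets span it.

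The SFRP genes encode soluble proteins that share the Wnt-binding domain of Frizzled receptors. The 2 SFRP2 probe sets read between 0.5 and 1.1 with TET1 siRNA and between 0.7 and 1.9 with control siRNA, and one of them (223121_s_at) was lower with TET1 siRNA without overlap (0.7 and 0.7, against 1.2 and 1.9). SFRP5 read 2 and 3.2 with TET1 siRNA, against 3 and 2.5 with control siRNA. WIF1, which binds Wnt proteins through another domain, read 0.6 and 3.9 with TET1 siRNA, against 6.9 and 0.7 with control siRNA. In SFRP5 and WIF1 the groups overlapped, and the arrays of 1 group differed as much as the groups did. SFRP1 has 4 probe sets, which ran from 0.6 to 18.7 with TET1 siRNA and from 0.4 to 16.9 with control siRNA. Its brightest read 8.4 and 18.7 with TET1 siRNA, against 16.9 and 9.5 with control siRNA, with no order between the groups. Another (202035_s_at) read 10.5 and 1.4 with TET1 siRNA, against 1 and 0.4 with control siRNA, without overlap.

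DKK3, a divergent relative of DKK1, and DKK4, a close one, were dim as well. DKK4 read 10.4 and 2.6 with TET1 siRNA, against 9.2 and 8.3 with control siRNA, so that the groups overlapped. The 6 DKK3 probe sets ran from 1 to 14.2 with TET1 siRNA and from 0.2 to 6.9 with control siRNA, and 2 of them were higher on both TET1 siRNA arrays than on both control siRNA arrays. One of these (202196_s_at) read 6.5 and 14.2 with TET1 siRNA, against 0.4 and 0.4 with control siRNA. The other (214247_s_at) read 8.5 and 13.1 with TET1 siRNA, against 2.3 and 5.4 with control siRNA. All of these values lay below the median signal of their array, and the other 4 DKK3 probe sets overlapped between the groups. With no filter on dim probe sets, 202196_s_at was the only one of the 19 dim probe sets at an unadjusted p below 0.05 (limma, adjusted p = 0.126). In that fit 4542 of all 54613 probe sets were higher and 4738 lower at an unadjusted p below 0.05 (limma).

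SOX17, a factor of endoderm, has 2 probe sets, and they went opposite ways. One (219993_at) read 16.8 and 6.7 with TET1 siRNA, against 4.7 and 1.7 with control siRNA, without overlap. The other (230943_at) read 7 and 5.2 with TET1 siRNA, against 6.4 and 14.8 with control siRNA, with overlap. With no filter neither passed (limma adjusted p = 0.355 and 0.684).

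Over the 7 genes at background together, 5 of 17 probe sets did not overlap between the groups, 4 higher and 1 lower with TET1 siRNA. Of all probe sets below the filter, 33% did not overlap in either direction. Those higher with TET1 siRNA without overlap were 15.4% of all probe sets below the filter. The medians over the 17 were 6.5 and 3.9 with TET1 siRNA and 3.4 and 2.5 with control siRNA, against array medians near 14. The median of the 74 other-tissue probe sets was also higher with TET1 siRNA, at 5.85 and 6.35 against 4 and 5.2 with control siRNA. With no filter, when 4.22% of 54613 probe sets passed, DKK1 was the only one of the 24 that did. No fold change is given for these 7 genes because both groups were at background. Of 10 fibroblast markers, a cell type that makes several of these proteins in tissue, 3 were above the filter. One, COL1A1, rose (limma adjusted p = 0.0345) by its brightest probe set and not by its other 2. COL1A2 and DCN did not pass, at log2 differences of -0.20 and -0.10, and the median of the 3 markers was -0.10. The summed fibroblast signal was 420.4 and 508.8 with TET1 siRNA and 365.5 and 334.2 with control siRNA, mostly COL1A1, while PDGFRB stayed at or below 8.4. Any part of this in the results was not tested.

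TET1 acts on methylated cytosines, most of which stand before a guanine, so the CpG dinucleotides of promoters are shown. The promoters are those of the bright DKK1 and of SFRP2 and WIF1, which lay below the filter. Methylation was not measured in these data. RefSeq sequences (GRCh38.p14) were at hand for the starts of 4 of the 10 genes, DKK1, SFRP2, SFRP5 and WIF1. Each line gives the 250 bases upstream of the start on the gene's strand, 5′ to 3′, with every CpG in capitals. DKK1 lies on the plus strand (chr10:52314031-52314280), SFRP2 on the minus strand (chr4:153789084-153789333) and WIF1 on the minus strand (chr12:65121306-65121555).
DKK1: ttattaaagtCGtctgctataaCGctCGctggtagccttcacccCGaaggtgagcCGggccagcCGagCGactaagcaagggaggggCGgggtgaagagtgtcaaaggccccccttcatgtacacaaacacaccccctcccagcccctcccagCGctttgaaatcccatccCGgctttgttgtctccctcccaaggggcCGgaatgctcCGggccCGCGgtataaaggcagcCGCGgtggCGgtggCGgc
SFRP2: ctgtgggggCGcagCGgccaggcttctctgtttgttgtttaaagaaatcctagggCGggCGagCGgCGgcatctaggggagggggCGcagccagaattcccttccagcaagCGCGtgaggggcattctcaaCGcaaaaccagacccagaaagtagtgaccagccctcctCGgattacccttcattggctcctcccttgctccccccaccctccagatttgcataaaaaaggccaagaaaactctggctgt
WIF1: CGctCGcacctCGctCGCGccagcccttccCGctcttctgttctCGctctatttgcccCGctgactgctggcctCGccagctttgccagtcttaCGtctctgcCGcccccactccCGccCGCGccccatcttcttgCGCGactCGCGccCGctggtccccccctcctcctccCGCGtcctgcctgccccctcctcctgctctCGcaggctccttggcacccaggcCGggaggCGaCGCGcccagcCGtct

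These windows hold 18 CpGs in DKK1, 11 in SFRP2 and 27 in WIF1, and that of SFRP5 holds 21. The median over 35116 starts of 27305 genes was 11, and 17.7% of starts had as many CpGs as WIF1 or more, against 36.8% for DKK1 and 50.3% for SFRP2. Over the 14750 starts of genes tested here the median was 20, above DKK1 and SFRP2 and below SFRP5 and WIF1. The ratio of observed to expected CpGs was 0.733 in DKK1, 0.531 in SFRP2, 0.611 in SFRP5 and 0.99 in WIF1. DKK1 lay between SFRP2 and the other 2 in CpG number. A search on both strands for TATAAA, the TATA box, found it in DKK1 at position -30 from the start and in none of the other 3 windows, and 10.7% of all windows hold it. A search for CTTTGNN with A or T at each N, the core of TCF sites, found 2 matches in DKK1, CTTTGAA at -95 and CTTTGTT at -76, and none in the other 3. Of all windows 12.0% hold this motif, and the 2 motifs do not overlap in DKK1. A match is a description of the sequence and says nothing of binding.

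**Figure D4:**
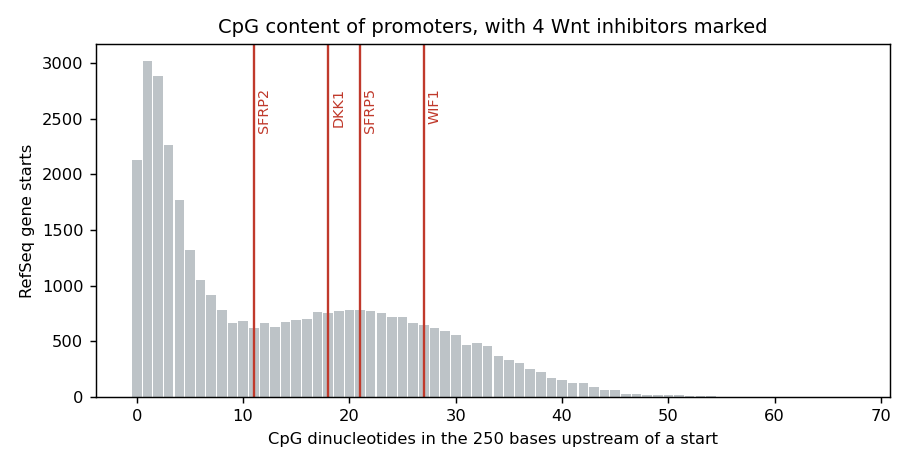
Number of RefSeq gene starts (vertical axis) by the count of CpG dinucleotides in the 250 bases upstream (horizontal axis), over 35116 starts, with lines at DKK1 (18), SFRP2 (11), SFRP5 (21) and WIF1 (27). All 4 lie at or above the median of 11 over all starts, while DKK1 and SFRP2 lie below the median of 20 over starts of tested genes.

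Of the molecules on which these inhibitors act, 13 of 15 receptors with a probe set were above the filter, but only 6 of 17 Wnt ligands. Among these 6, WNT16 read 787.1 and 750.3 with TET1 siRNA, against 970.5 and 912.7 with control siRNA, while WNT2B, WNT6, WNT7B, WNT9A and WNT10B stayed between 11.6 and 46.8. Each gene was read by the brightest of its probe sets, by which rule 19.6% of 12389 genes passed, 10% higher and 9.55% lower. LRP6, a co-receptor blocked by DKK1, read 376.6 and 306.8 with TET1 siRNA, against 324 and 296.1 with control siRNA (log2 difference 0.13, limma adjusted p = 0.514). A dimmer LRP6 probe set (205606_at) was higher, at 69.6 and 97.9 with TET1 siRNA against 48.2 and 36.4 with control siRNA (log2 difference 0.77, limma adjusted p = 0.0208), and the third did not pass. LRP5 did not pass (log2 difference -0.081, limma adjusted p = 0.818). LRP6 and LRP5 were named after their values were seen.

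Of 13 tested Wnt receptors 1 rose and none fell (limma, at unadjusted p below 0.05 3 higher and 0 lower), with a median log2 difference of 0.011. When only the brightest probe set of each gene was fitted, 2221 of 12389 genes were higher and 1989 lower at that unadjusted p (limma). The riser was ROR1, a receptor tyrosine kinase for WNT5A, at 73.9 and 72.4 with TET1 siRNA against 36 and 35.8 with control siRNA (log2 difference 0.78, limma adjusted p = 0.00922), although its dimmer probe set did not pass. The Frizzled genes FZD2 (0.46), FZD5 (0.35) and FZD7 (-0.24) did not pass. FZD3, named after its values were seen, did not pass by its brightest probe set, but 1 of its 4 above the filter fell (227524_at, 28.2 and 36.8 with TET1 siRNA against 59.2 and 63.6 with control siRNA, log2 difference -0.68, limma adjusted p = 0.0284). Of 6 tested Wnt ligands 1 fell, WNT16 (log2 difference -0.29, limma adjusted p = 0.0291), and its other probe set did not. WLS, which carries Wnt proteins to the cell surface, read 630.1 and 649.1 with TET1 siRNA, against 933.2 and 977.1 with control siRNA (log2 difference -0.57, limma adjusted p = 7.28e-04), with its other 2 probe sets not past the threshold. Of 4 tested genes of R-spondins and their receptors 1 fell: RNF43, a ubiquitin ligase that removes Frizzled receptors, at 143.1 and 141.4 with TET1 siRNA against 208.4 and 238.1 with control siRNA (log2 difference -0.59, limma adjusted p = 0.00619).

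Most other secreted Wnt antagonists also lay below the filter. Of 12 genes 4 were tested and 0 passed in limma, and at an unadjusted p below 0.05 there was 1, NOTUM, an enzyme that removes the lipid of Wnt proteins (25 and 9.9 with TET1 siRNA, 32.2 and 36.5 with control siRNA, log2 difference -0.63, limma adjusted p = 0.121). FRZB, DRAXIN and TRABD2A were at log2 differences of -0.015, -0.15 and -0.097. The median of the 4 was -0.12, and that of all genes tested was 0.0098.

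Inside the cell, 1 of 14 tested inhibitors rose and 1 fell by the brightest probe set. APC, the scaffold of beta-catenin destruction, rose by 2 of its 5 probe sets above the filter, the brightest at 186.3 and 242.1 with TET1 siRNA against 156.8 and 132.8 with control siRNA (log2 difference 0.51, limma adjusted p = 0.0332). TLE2, a corepressor of TCF factors, fell (log2 difference -0.61, limma adjusted p = 0.0107), but its other probe set (204431_at) did not pass (-0.27, limma adjusted p = 0.525). TLE1, named after its values were seen, did not pass by its brightest probe set, but 1 of its 4 above the filter rose (203221_at). That one read 475.6 and 473 with TET1 siRNA, against 382.4 and 298.4 with control siRNA (log2 difference 0.47, limma adjusted p = 0.0179). Of 9 tested transducers and nuclear effectors 3 fell and none rose (limma, at unadjusted p below 0.05 also 3 and 0), with a median of -0.17. They were TCF7L2, the main TCF of colon cells, BCL9, a coactivator of beta-catenin (log2 difference -0.88, limma adjusted p = 0.0135), and DVL3, which relays the receptor signal (-0.58, limma adjusted p = 0.0257). TCF7L2 read 3518.7 and 3500.6 with TET1 siRNA, against 4855.3 and 4753.5 with control siRNA (log2 difference -0.45, limma adjusted p = 5.53e-04), and 6 of its 7 probe sets above the filter fell. The beta-catenin gene CTNNB1, named after its values were seen, did not pass by its brightest probe set. Of its 3 above the filter 1 fell (1554411_at), at 436.1 and 528 with TET1 siRNA against 759.9 and 619.4 with control siRNA (log2 difference -0.50, limma adjusted p = 0.0143).

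Of 11 tested Wnt target genes 1 rose and 2 fell, with a median of -0.020. CCND1 (cyclin D1) rose to 961.5 and 1009.8 with TET1 siRNA, against 688.6 and 689.2 with control siRNA (log2 difference 0.51, limma adjusted p = 0.00131), while its other probe set (208711_s_at) did not pass (0.37, limma adjusted p = 0.0574). RNF43, given above, and the adhesion receptor gene CD44 (log2 difference -0.42, limma adjusted p = 0.00244) fell. Only 2 of the 11 CD44 probe sets above the filter fell, and a bright one that did not (209835_x_at) read 1178.3 and 1072.8 with TET1 siRNA, against 1132.5 and 1123.1 with control siRNA. Of 7 tested SOX genes other than SOX17 0 passed in limma by the brightest probe set, and their median was -0.020. At an unadjusted p below 0.05 there was 1, SOX8, with a log2 difference of -0.39. SOX6, SOX13 and SOX15 were at 0.37, -0.11 and -0.17. SOX4, named after its values were seen, had 6 probe sets above the filter, of which 1 dim one fell (1567906_at). It read 23 and 28.4 with TET1 siRNA, against 48.5 and 49.7 with control siRNA (log2 difference -0.65, limma adjusted p = 0.0411). Across the 9 lists, 64 genes were tested, of which 3 rose and 8 fell, or 17.2%, against the 19.6% of all genes.

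**Figure D5:**
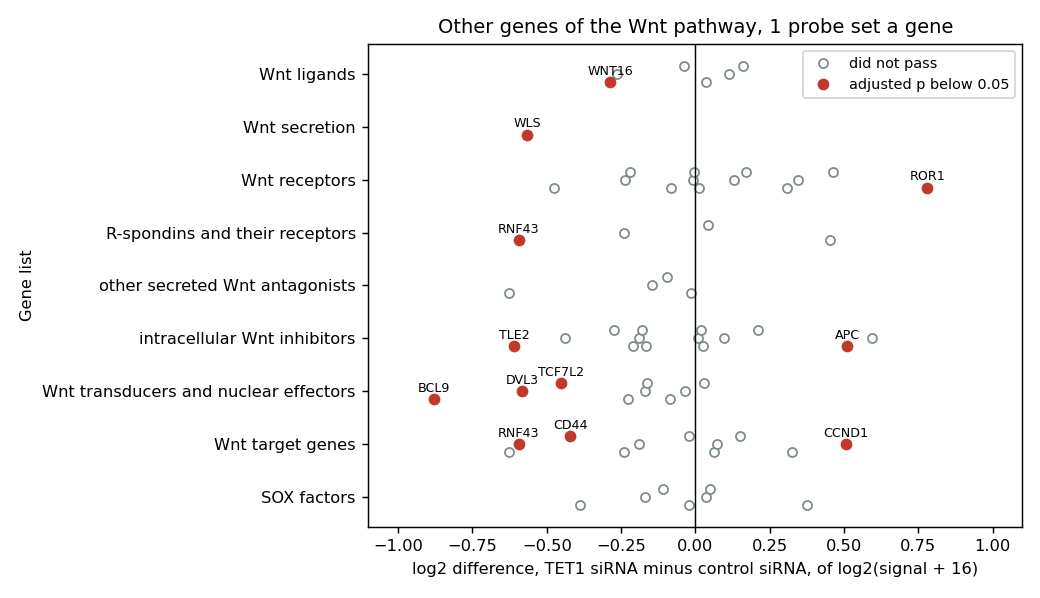
Log2 difference (TET1 siRNA minus control siRNA, of log2(signal + 16)) of each tested gene of 9 lists of the Wnt pathway and SOX factors, 1 probe set a gene, filled and named where the limma adjusted p was below 0.05. ROR1, APC and CCND1 lie to the right, and BCL9, TLE2, RNF43, DVL3, WLS, TCF7L2, CD44 and WNT16 to the left.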

How the data were processed

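Per the labels' protocols, oligo(dT)-primed cDNA was transcribed into biotin-labelled cRNA and hybridised to Affymetrix GeneChips, so the probe sets read mostly the 3′ part of poly(A) transcripts. The deposited table holds a linear-scale intensity for each probe set, and the authors' values have the same 2% trimmed mean on every array (100.01). The software and the way background was removed are not stated in the labels, and they bear on dim probe sets most. Such scaling cannot show a change in total mRNA.

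The groups follow the siRNA named in the labels. Values entered as log2(signal + 16), a scale on which changes of dim probe sets look smaller than they are. The 62 control probe sets among the 54675 did not enter. Each of the 27306 probe sets above the filter was tested by itself with limma 3.58.1 in R 4.3.3 (lmFit, then eBayes with trend = TRUE, so that variance may follow signal; 2 residual and 8.73 prior degrees of freedom), two-sided, and p-values were adjusted by Benjamini and Hochberg's method (threshold 0.05). Symbols came from the platform annotation (1 symbol for 41091 probe sets, several for 1801, none for 11721), of which 41037 identifiers matched RefSeq GRCh38.p14. In simulated data on the 27306 probe sets, 50 were changed at each size. There limma recovered 66% of probe sets raised by 1 on the log2 scale, 44% of those lowered by 1 and 16% of those raised by 0.5, with 4 false calls among 71. Far fewer probe sets changed there than the 16.1% called in the data, which makes the adjustment stricter. These rates therefore do not give the power of the reported test.

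Named were all 10 members, TET1, up to 4 genes of each list (called genes by size of change, then others by p) and the 3 genes nearest to a called member. The members and lists were chosen with earlier results of these data known. Alternatives were pseudocounts of 1 and 64, quantile normalization, median centring, no variance trend, no moderation, the replicate block, leaving out each array, other filters, other choices of probe set and other background levels. Figures were drawn with matplotlib 3.10.9.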

Additional observations from a re-analysis of the deposited data

How the results depend on the processing

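Probe sets of the Wnt inhibitors called higher numbered 2 (DKK1 and KREMEN2) with quantile normalization, median centring, a pseudocount of 64, 1 probe set a gene or gene-wise means, 0 without a variance trend (limma, 2 at unadjusted p below 0.05) and 0 without moderation (1 at unadjusted p below 0.05). In the other 9 alternatives it was 1 (DKK1), and none was called lower in any of the 16. Leaving out 1 array gave 1 to 1, with a lone array assumed to vary like the other group. Counts of all probe sets higher and lower, 2119 and 2268 as reported, were 298 and 541 without a variance trend, 0 and 1 without moderation (2500 and 2636 at unadjusted p below 0.05), 1098 and 1204 with no filter, 1393 and 1316 with 1 probe set a gene, 772 and 892 with gene-wise means over probe sets, and 1104 and 1248 with _x_at and _s_at probe sets left out. They were 1197 to 1719 higher and 1460 to 1669 lower when 1 array was left out: 1271 higher without TET1 siRNA replicate 1, 1197 higher without TET1 siRNA replicate 2 and 1460 lower without control siRNA replicate 2. The TET1 difference of -1.28 kept its call in 14 of 15 alternatives and lost it without moderation (limma adjusted p = 0.121), and ran from -1.92 with a pseudocount of 1 to -0.64 with a pseudocount of 64; TET1, KREMEN1 and KREMEN2 lie below the upper-quartile filter. The KREMEN1 difference turned to -0.030 with gene-wise means, and leaving out 1 array gave -0.11 to 0.21. Probe sets above background were 5 with the 90th percentile, 5 with the median of all probe sets and 5 without MBP, the last chosen after seeing the data. The labels link same-numbered samples of the 2 groups by a number only. The correlation of their deviations was 0.00664, which cannot show whether they were prepared together. With the replicate block 2151 probe sets were higher and 2327 lower, with 1 and 0 for the Wnt inhibitors. No call changed among TET1, DKK1, KREMEN1 and KREMEN2. Fewer calls without moderation come with 2 residual degrees of freedom, and the cause of the other moves was not tested. Few arrays and the signal near background limit what can be seen for the 7 dim genes.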
